A study of Mus musculus with 6 samples.

Results

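The miR-219 and miR-338 microRNAs (miRNAs) of oligodendrocytes, the myelin-forming cells of the central nervous system, were measured in small RNA libraries of mouse brain. Members were all mature names starting with miR-219 or miR-338-, which gave 5 of the 622 names in the tables. These are mmu-miR-219a-2-3p, mmu-miR-219a-5p, mmu-miR-219a-1-3p, mmu-miR-338-3p and mmu-miR-338-5p, written below without the species prefix. The study compared 3 GCI libraries (numbered 1, 2 and 3), from brains after cerebral ischemia-reperfusion with both carotid arteries ligated for 20 minutes, with 3 sham-operated libraries (Sham 3, 6 and 7), labelled as untreated. All 6 were made from brain of C57BL/6J, an inbred mouse strain, with no allele or agent named in addition. Age, brain region and the length of reperfusion are not stated in the labels. Nor do these say whether every library is a different mouse, so the spread behind the p-values may be technical. With 1 row kept per name, counts summed to 1559288 to 2023475 in GCI libraries and 1423905 to 1750612 in Sham libraries. Over all rows they summed to 2114319 to 2903601 in GCI libraries and 2147520 to 2639616 in Sham libraries. The tables hold miRNAs and no mRNA of myelin genes, so the oligodendrocyte label could not be checked against protein-coding markers, and in bulk tissue fewer cells of a type and less RNA per cell cannot be told apart.

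miRNAs are cut from a hairpin precursor, which can give a mature strand from its 5′ arm (5p) and another from its 3′ arm (3p), and each strand finds its target mRNAs mainly through its seed, bases 2 to 8. In the mouse, miR-219 and miR-338 are switched on as oligodendrocyte precursors stop dividing and mature, and miR-219 represses transcripts that keep precursors proliferating, among them those of the growth factor receptor Pdgfra and the transcription factor Sox6. Mice without these miRNAs myelinate poorly. miR-219 is also found in neurons, where it has been linked to NMDA receptor signalling and the circadian clock, and miR-338 is also found in axons.

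Mature sequences from RefSeq (GRCm38.p6) were matched for 4 of the 5 names, all but miR-219a-2-3p. They are shown with the seed in capitals, because the seeds set which transcripts each strand can pair with.
miR-219a-5p: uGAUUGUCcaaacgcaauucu
miR-219a-1-3p: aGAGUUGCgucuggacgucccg
miR-338-3p: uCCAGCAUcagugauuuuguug
miR-338-5p: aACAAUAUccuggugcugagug
The 4 seeds differed from one another, and 0 other names carried any of them among the 1679 mature names of RefSeq, so the strands do not form a seed family.

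The hairpins are shown because arms are compared below, with the matched mature strands in capitals.
Mir219a-2: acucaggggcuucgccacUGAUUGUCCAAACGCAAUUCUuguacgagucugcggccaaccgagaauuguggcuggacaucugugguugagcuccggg
Mir219a-1: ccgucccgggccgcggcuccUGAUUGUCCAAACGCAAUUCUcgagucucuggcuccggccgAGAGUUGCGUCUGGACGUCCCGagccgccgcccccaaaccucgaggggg
Mir338: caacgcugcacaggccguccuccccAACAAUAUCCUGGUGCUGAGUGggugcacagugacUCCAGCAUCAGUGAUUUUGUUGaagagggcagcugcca
The Mir219a-2 and Mir219a-1 hairpins both carry miR-219a-5p, and the longest stretch they share is 22 bases. The sequence of miR-219a-5p can therefore come from either hairpin, while each 3p strand belongs to a single hairpin.

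On GRCm38, Mir219a-2 lies at 29845631 to 29845727 on the minus strand of chromosome 2, where GENCODE M21 annotates no host gene. Mir219a-1 lies at 34024983 to 34025092 on the minus strand of chromosome 17 and overlaps an exon of the long noncoding RNA Gm26940 on the same strand. Mir338 lies at 120014765 to 120014862 on the minus strand of chromosome 11, in an intron of Aatk, a protein-coding gene for a kinase expressed in the nervous system. Each hairpin faces another miRNA gene on the opposite strand (Mir219b, Mir219c and Mir3065), whose sequence is its exact reverse complement over 65, 60 and 87 bases. Of 6 mature names listed as products of these 3 opposite-strand genes, 0 were among the names measured.

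miR-219a-2-3p was the member with the highest level in every library and, of the 4 tested members, the one whose GCI libraries stood farthest apart. Levels are in CPM, each count relative to its library's total after TMM scaling, a scaling that sets the bulk of miRNAs level between libraries. miR-219a-2-3p stood at 1986, 578 and 1114 CPM in GCI libraries 1, 2 and 3, against 630, 625 and 544 CPM in Sham libraries 3, 6 and 7. GCI libraries 1 and 3 lay above every Sham library, and GCI library 2 lay among them, so the groups overlapped. The mean was 1226 ± 711 CPM in GCI libraries and 600 ± 48.1 CPM in Sham libraries (SD, n = 3 each).

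**Figure D1:**
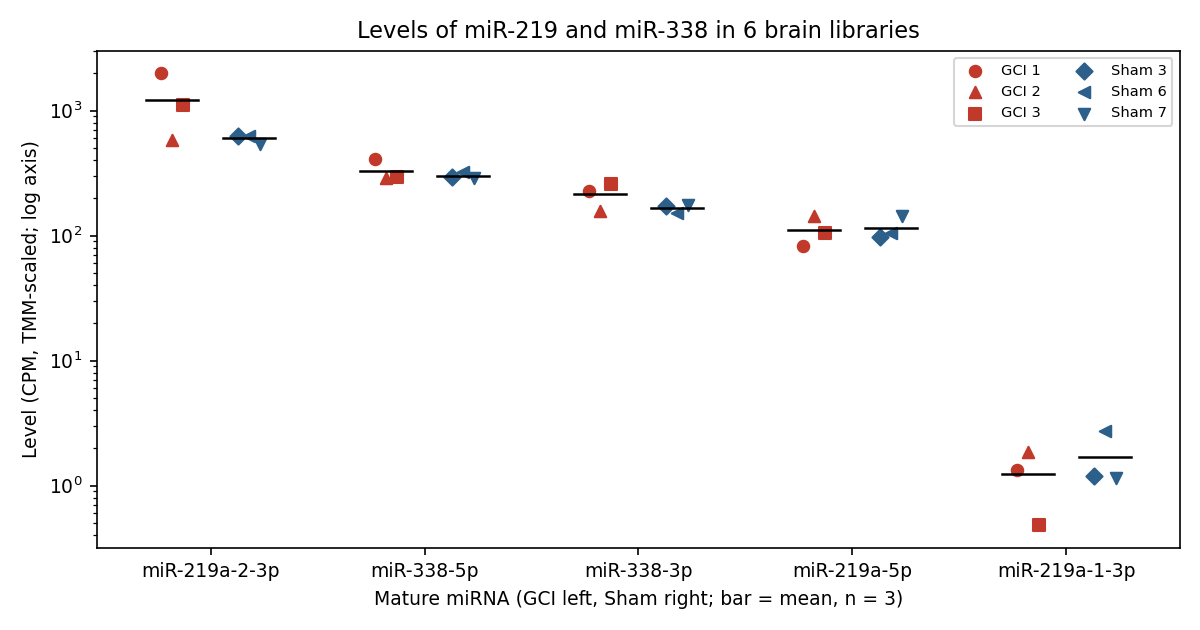
Level of each member in each library, in TMM-scaled CPM on a log axis, with GCI libraries in red at the left and Sham libraries in blue at the right of each name; bars are means of 3 libraries. GCI libraries 1 and 3 lie above the Sham libraries for miR-219a-2-3p (1986 and 1114 CPM against at most 630 CPM), and GCI library 2 does not (578 CPM).

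miR-219a-5p, the strand made by both miR-219a hairpins and the one most studied in myelination, was present at a lower level and did not follow miR-219a-2-3p. It stood at 82.3, 143 and 105 CPM in GCI libraries 1, 2 and 3, against 96.7, 105 and 143 CPM in Sham libraries 3, 6 and 7. The groups overlapped throughout, and GCI library 1, the highest of all for miR-219a-2-3p, was the lowest of all for miR-219a-5p. The means were 110 ± 30.8 CPM in GCI libraries and 115 ± 24.4 CPM in Sham libraries (SD, n = 3 each).

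miR-219a-5p is listed on a pair of rows with unequal counts, of which the higher was used. The lower row held 62, 121 and 104 counts in GCI libraries 1, 2 and 3, against 102, 73 and 155 counts in Sham libraries 3, 6 and 7, or 47.4% to 63.4% of the higher row. The row names do not say which row belongs to which hairpin, so no level is given per hairpin.

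miR-219a-1-3p, the 3p strand of the Mir219a-1 hairpin, was close to the detection limit. It had 2, 3 and 1 counts in GCI libraries 1, 2 and 3, against 2, 4 and 2 counts in Sham libraries 3, 6 and 7, and was too low to test. With exact Poisson 95% intervals, which cover counting error only, the lowest of these counts allows 0.0253 to 5.57 and the highest 1.09 to 10.2, so no difference was detectable at this depth.

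miR-338-3p, which acts with miR-219 in oligodendrocyte maturation, stood at 226, 156 and 258 CPM in GCI libraries 1, 2 and 3, against 171, 153 and 174 CPM in Sham libraries 3, 6 and 7. As for miR-219a-2-3p, GCI libraries 1 and 3 lay above every Sham library and GCI library 2 lay among them. The means were 213 ± 51.8 CPM in GCI libraries and 166 ± 11.7 CPM in Sham libraries (SD, n = 3 each).

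miR-338-5p, the other arm of the Mir338 hairpin, stood at 410, 289 and 295 CPM in GCI libraries 1, 2 and 3, against 294, 320 and 287 CPM in Sham libraries 3, 6 and 7. GCI library 1 was the highest, and GCI libraries 2 and 3 lay within the Sham range. The means were 331 ± 67.8 CPM in GCI libraries and 300 ± 17.6 CPM in Sham libraries (SD, n = 3 each).

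By mean level the members ranked 87 (miR-219a-2-3p), 131 (miR-338-5p), 162 (miR-338-3p), 209 (miR-219a-5p) and 584 (miR-219a-1-3p) of 622 names. In both groups this order was the same, and the lowest library of each member lay above the highest library of the next one. The 4 matched mature strands are of like length (21 or 22 bases), and no mature sequence was matched for miR-219a-2-3p. Adapter ligation favours some end sequences, so the order describes these libraries rather than molecule numbers in the tissue. With 1 row kept per name, the 5 members together took 0.259%, 0.115% and 0.182% of counts in GCI libraries 1, 2 and 3, against 0.121%, 0.124% and 0.114% in Sham libraries 3, 6 and 7. miR-219a-2-3p made up 73.4%, 49.5% and 62.8% of these member counts in GCI libraries 1, 2 and 3, against 52.8%, 51.8% and 47.3% in Sham libraries 3, 6 and 7.

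None of the 4 tested members passed an adjusted p of 0.05 over all 440 tested miRNAs by the quasi-likelihood test of edgeR with Benjamini-Hochberg adjustment, which called 10 miRNAs (2.27%). DESeq2, which called 5.91% of all tested miRNAs, and limma-voom, which called 2.27%, also called 0 of the 4, and 1 of the 4 (miR-219a-2-3p) had an unadjusted edgeR p under 0.05, as did 16.8% of all tested miRNAs. For miR-219a-2-3p the log2 fold change, GCI over Sham, was 1.03 ± 0.38 (SE), a fold of 2.04 with a 95% interval of 1.14 to 3.68 (edgeR unadjusted p = 0.0223, adjusted p = 0.213). DESeq2 gave it an adjusted p of 0.0862 and limma-voom one of 0.275. For miR-338-3p the log2 fold change was 0.36 ± 0.23, a fold of 1.29 with an interval of 0.897 to 1.84 (edgeR adjusted p = 0.420). For miR-338-5p it was 0.14 ± 0.21, with a fold interval of 0.795 to 1.53 (edgeR adjusted p = 0.729). For miR-219a-5p it was −0.060 ± 0.26, with a fold interval of 0.637 to 1.44 (edgeR adjusted p = 0.918). The median log2 fold change of the 4 was 0.25, against −0.054 for all 440. For 0 of the 4 did the groups separate, whereas they did for 21.8% of all tested miRNAs.

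**Figure D2:**
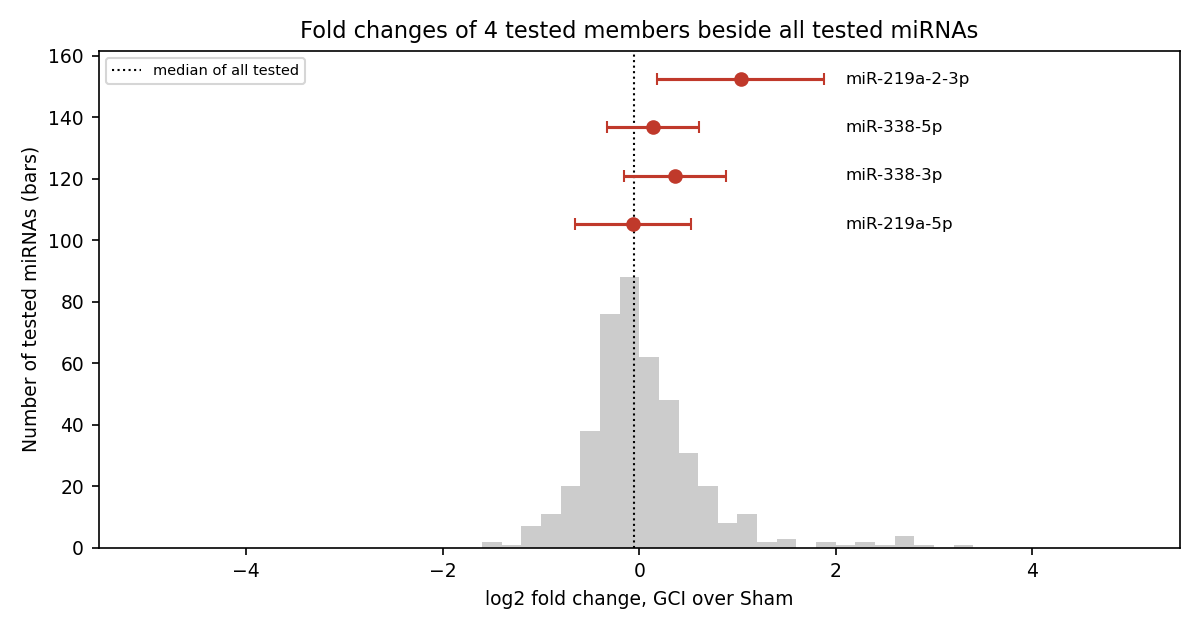
Log2 fold change, GCI over Sham, of the 4 tested members (red points, lines are 95% intervals of the edgeR fit) above a histogram of all 440 tested miRNAs (grey bars, number of miRNAs per 0.2 log2 units). The interval of miR-219a-2-3p, centred at 1.03, leaves out 0, and those of miR-338-5p, miR-338-3p and miR-219a-5p hold it.

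The value of miR-219a-2-3p rested on single GCI libraries. Without GCI library 1 its log2 fold change was 0.51 (edgeR adjusted p = 0.525). Without GCI library 2 it was 1.36 and passed the threshold (edgeR adjusted p = 0.00802), in a fit that called 100 of 456 tested miRNAs (21.9%). With any other single library left out it ran from 0.97 to 1.16 and did not pass. miR-338-3p kept a positive log2 difference of 0.27 to 0.54 with each library left out in turn and never passed (edgeR adjusted p of 0.0632 to 0.676). miR-338-5p turned to −0.026 without GCI library 1, and miR-219a-5p turned positive without GCI library 1 (0.12), GCI library 3 (0.028) or Sham library 7 (0.13). The position of GCI libraries 1 and 3 above every Sham library, seen for miR-219a-2-3p and miR-338-3p, was shared by 117 of the 440 tested miRNAs (26.6%).

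**Figure D3:**
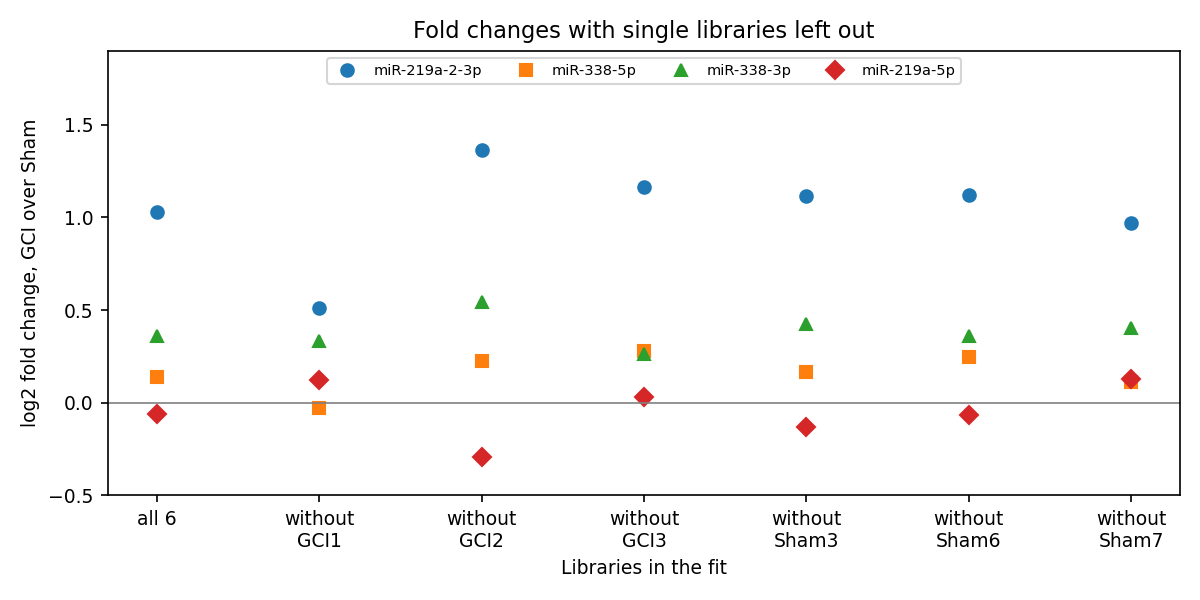
Log2 fold change, GCI over Sham, of the 4 tested members with all 6 libraries and with each library left out. miR-219a-2-3p ranges from 0.51 without GCI library 1 to 1.36 without GCI library 2, while miR-219a-5p stays near 0, from −0.29 to 0.13.

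Comparing the 3p with the 5p strand inside a library removes the scaling. At the Mir219a-2 hairpin the 3p strand was the more abundant in every library: miR-219a-2-3p had 24.1, 4.03 and 10.6 counts per count of miR-219a-5p in GCI libraries 1, 2 and 3, against 6.52, 5.93 and 3.81 in Sham libraries 3, 6 and 7. Against the higher row of miR-219a-5p alone, the 3p strand thus made up 96.02% of the counts of both strands in GCI library 1 (exact 95% binomial interval 95.3% to 96.7%). These intervals cover counting error only, not the spread between libraries. The 3p strand made up 91.4% in GCI library 3 (90.2% to 92.4%). In GCI library 2 it made up 80.1% (77.7% to 82.4%), within the range of 79.2% to 86.7% in the Sham libraries. As a log2 ratio the mean was 3.33 ± 1.29 in GCI libraries and 2.40 ± 0.41 in Sham libraries (SD, n = 3 each), a difference of 0.94. An exact two-sided permutation test gave p = 0.3, where 3 against 3 libraries cannot go below 0.1 (Benjamini-Hochberg adjusted p = 0.6 over 3 hairpins). Without GCI library 1 the difference was 0.31, and without GCI library 2 it was 1.60. Since miR-219a-5p also comes from Mir219a-1, whether its row used here holds counts of 1 hairpin or of both is not known. Its lower row was left out of these ratios and shares, and counting it would lower the 3p shares. With repeated rows summed the difference in log2 ratio was 1.00 (exact permutation p = 0.3).

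At the Mir338 hairpin the order was the other way round, with the 5p strand ahead in all 6 libraries. miR-338-3p had 0.552, 0.541 and 0.873 counts per count of miR-338-5p in GCI libraries 1, 2 and 3, against 0.583, 0.477 and 0.607 in Sham libraries 3, 6 and 7. GCI library 3 stood above the rest, with a 3p share of 46.6% (exact 95% binomial interval 43.7% to 49.5%, counting error only), and the other GCI libraries lay within the Sham range of 32.3% to 37.8%. The mean log2 ratio was −0.65 ± 0.39 in GCI libraries and −0.85 ± 0.19 in Sham libraries (SD, n = 3 each), a difference of 0.21 that did not pass (exact two-sided permutation p = 0.6, adjusted p = 0.6). Without GCI library 3 this difference was −0.016. At Mir219a-1, again against the higher row of miR-219a-5p, the 3p strand held 0.457% to 1.60% of counts in GCI libraries and 0.800% to 2.53% in Sham libraries. The same row served for Mir219a-2, so these shares may not be of this hairpin alone. The 3p strand had 1 to 4 counts, which are too few to compare (exact permutation p = 0.6).

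**Figure D4:**
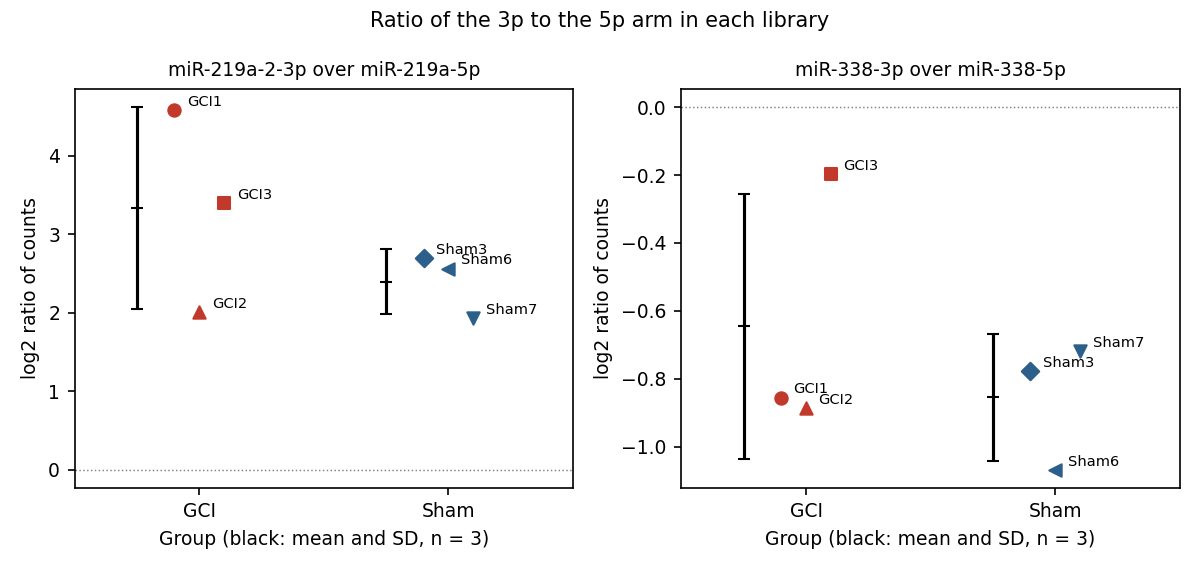
Log2 ratio of 3p to 5p counts in each library, at the left for miR-219a-2-3p over the higher row of miR-219a-5p. The right shows miR-338-3p over miR-338-5p, and black marks give the mean and SD of 3 libraries. GCI libraries 1 and 3 lie highest at the left, at 4.59 and 3.40, and GCI library 3 alone at the right, at −0.20.

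The patterns most like that of miR-219a-2-3p were not those of the other members. Likeness was taken as the root mean square difference of log2 CPM over the 6 libraries, after taking off each miRNA's own mean, among 401 other miRNAs with a mean of at least 10 CPM. The nearest were miR-195a-5p, of the miR-15 and miR-16 seed family (0.13 log2 units), miR-155-5p, a miRNA of activated immune cells (0.16), miR-148a-3p (0.18), miR-542-3p (0.18) and miR-142a-5p, made in blood-forming cells and microglia (0.19), against a median of 0.75. miR-338-3p came at place 70 (0.48), miR-338-5p at place 96 (0.53) and miR-219a-5p at place 289 (0.91). miR-155-5p, for example, stood at 67.6, 21.2 and 46.8 CPM in GCI libraries 1, 2 and 3, against 19.8, 17.8 and 17.3 CPM in Sham libraries 3, 6 and 7. These are descriptions over 6 libraries that share their scaling, and none of the 5 nearest passed the threshold (edgeR with Benjamini-Hochberg adjustment, adjusted p of 0.133 to 0.283).

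**Figure D5:**
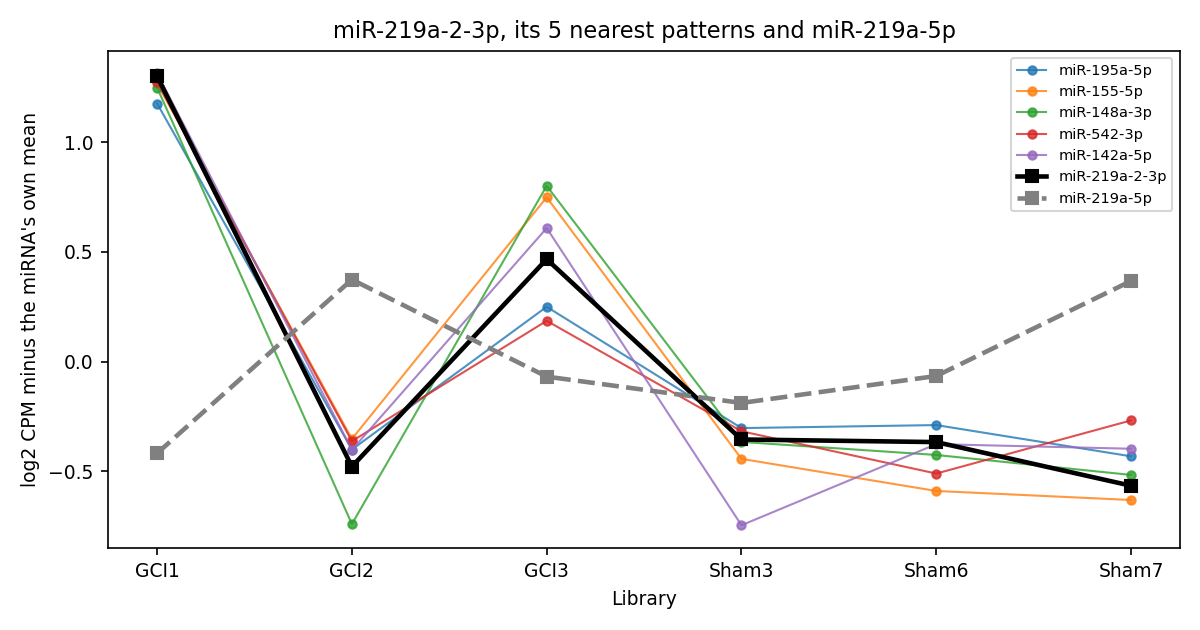
Log2 CPM minus each miRNA's own mean in the 6 libraries, for miR-219a-2-3p (black), its 5 nearest patterns (colours) and miR-219a-5p (grey, dashed); lines only join the points of a miRNA. miR-219a-2-3p and its neighbours, which were picked for likeness to it over these same libraries, are highest in GCI library 1, where miR-219a-5p is lowest.

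Other miRNAs with a role in the oligodendrocyte lineage were split in direction. The list was not sorted by what each miRNA does there, so the split gives no direction for the lineage itself. Of 9 listed and tested, 4 had positive and 5 negative log2 differences, edgeR, DESeq2 and limma-voom each called 0 in either direction (0 at an unadjusted edgeR p under 0.05), and the median was −0.046, against −0.054 for all 440. miR-138-5p, which is enriched in maturing oligodendrocytes, stood at 1450, 1148 and 1395 CPM in GCI libraries 1, 2 and 3, against 1828, 1795 and 1461 CPM in Sham libraries 3, 6 and 7. All GCI values lay below all Sham values, with a log2 difference of −0.35 ± 0.19 (edgeR adjusted p = 0.353). miR-23a-3p, which represses lamin B1 and favours myelination, likewise did not overlap. Its highest GCI library was at 959 CPM and its lowest Sham library at 967 CPM. The means were 868 ± 83.6 CPM in GCI libraries and 980 ± 11.3 CPM in Sham libraries (SD, n = 3 each, log2 difference −0.17 ± 0.18, edgeR adjusted p = 0.622). Groups thus did not overlap for 2 of the 9, beside 21.8% of all tested miRNAs. miR-27a-3p had the highest positive difference of the list, with 2452 ± 817 CPM in GCI libraries and 1750 ± 152 CPM in Sham libraries (log2 difference 0.49 ± 0.26, edgeR adjusted p = 0.337). The others, miR-32-5p, miR-145a-5p, miR-125a-3p, miR-17-5p, miR-19b-3p and miR-212-3p, had log2 differences of −0.32 to 0.38, all with overlapping groups.

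Marker miRNAs of other cells were measured in the same libraries, and within most lists the members went in both directions. The 7 listed miRNAs of microglia and leukocytes, all measured, summed to 15089, 4243 and 12323 CPM in GCI libraries 1, 2 and 3, against 4551 to 5582 CPM in Sham libraries. Library 2 thus lay below every Sham library. Most of the sum was miR-146a-5p, a miRNA induced by inflammatory signalling, at 13359, 2267 and 9874 CPM in GCI libraries 1, 2 and 3, against 2587 to 3289 CPM in Sham libraries. Without it the list summed to 1730, 1976 and 2448 CPM in GCI libraries 1, 2 and 3, against 1964 to 2293 CPM in Sham libraries, with GCI library 1 lowest of all. By single members, 5 of the 7 had the order of miR-219a-2-3p among GCI libraries, with library 1 highest and library 2 lowest. The 2 others did not: miR-342-3p stood at 991, 1556 and 1919 CPM in GCI libraries 1, 2 and 3, against 1480 to 1878 CPM in Sham libraries, and miR-223-3p, named here after its values were seen, at 2.68, 0.62 and 16.9 CPM in GCI libraries 1, 2 and 3, against 6.91 to 21.6 CPM in Sham libraries. Of the 5 with the order, miR-155-5p and miR-142a-5p had been picked for it as nearest patterns. miR-150-5p stood nearly level in GCI libraries 2 and 3 (308 and 309 CPM). The order was also held by 4 of 8 miR-183 and miR-200 miRNAs, 3 of 9 lineage and 2 of 4 red cell miRNAs. Both measured Hox-locus miRNAs and 1 miRNA in each other marker list below held it too. Its share of all tested miRNAs was not counted. Of the 7, edgeR called 0 (3 at an unadjusted p under 0.05), limma-voom called 0, and DESeq2 called 2, miR-146a-5p and miR-155-5p.

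The 8 listed miRNAs of the miR-183 cluster and miR-200 family, all 8 of which rose (edgeR adjusted p of 0.0247 to 0.0416), summed to 50923, 22069 and 27224 CPM in GCI libraries 1, 2 and 3, against 1982 to 7191 CPM in Sham libraries. In the other marker lists edgeR and limma-voom called 0 miRNAs, with 1 each in the Hox-locus, red cell, astrocyte and choroid plexus lists at an unadjusted edgeR p under 0.05, and DESeq2 called 1. Of the 4 listed Hox-locus miRNAs of the hindbrain, the 2 measured (miR-10a-5p and miR-10b-5p) summed to 528, 275 and 351 CPM in GCI libraries 1, 2 and 3, against 230 to 290 CPM in Sham libraries. The 4 red cell miRNAs summed to 409 to 558 CPM in GCI libraries and 394 to 458 CPM in Sham libraries, but their 2 leading members went apart. miR-486a-5p stood at 274, 126 and 195 CPM in GCI libraries 1, 2 and 3, the order of miR-219a-2-3p, against 91.5 to 110 CPM in Sham libraries (log2 difference 1.01 ± 0.29, edgeR adjusted p = 0.128, the 1 DESeq2 call of the list). miR-451a stood at 256 to 282 CPM in GCI libraries and 279 to 333 CPM in Sham libraries.

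The 6 neuronal miRNAs summed to 92759 to 101330 CPM in GCI libraries and 95822 to 112661 CPM in Sham libraries, most of it miR-9-5p, and 5 of the 6 had negative log2 differences, with a median of −0.29. Groups did not overlap for 1 of the 6, miR-128-3p, beside 21.8% of all tested miRNAs. It stood at 4591 to 7363 CPM in GCI libraries and 7735 to 8574 CPM in Sham libraries (log2 difference −0.48 ± 0.22, edgeR adjusted p = 0.294). The 5 miRNAs listed for astrocytes summed to 108706 to 148962 CPM in GCI libraries and 94458 to 133009 CPM in Sham libraries. Nearly all of this was miR-30a-5p, which ranked 2 of 622 names by mean level, so the sum describes that miRNA rather than astrocytes. Without it the list summed to 8027 to 10330 CPM in GCI libraries and 8500 to 10138 CPM in Sham libraries. In this list 3 differences were positive and 2 negative. miR-23b-3p of this list did not overlap, at 809 to 1645 CPM in GCI libraries and 2043 to 2376 CPM in Sham libraries (log2 difference −0.87 ± 0.26, edgeR adjusted p = 0.133). The 5 choroid plexus and ependymal miRNAs summed to 3654 to 5145 CPM in GCI libraries and 2857 to 3460 CPM in Sham libraries, and of the 4 tested, 2 differences were positive and 2 negative, with a median of −0.10. Their leading member miR-34c-5p, a miRNA of ciliated cells, stood at 1959 to 3159 CPM in GCI libraries and 1217 to 1564 CPM in Sham libraries (log2 difference 0.72 ± 0.24, edgeR adjusted p = 0.162), and without it the sums overlapped, at 1695 to 1986 CPM in GCI libraries and 1639 to 1896 CPM in Sham libraries. miR-204-5p, the choroid plexus marker, averaged 373 ± 62.2 CPM in GCI libraries and 473 ± 42.5 CPM in Sham libraries (SD, n = 3 each, log2 difference −0.34 ± 0.20, edgeR adjusted p = 0.381). The 4 vessel wall miRNAs summed to 26815 to 45231 CPM in GCI libraries and 35185 to 49835 CPM in Sham libraries, with 2 positive and 2 negative differences. No measured marker was at 0 in any library, and the part of these cells in the values of miR-219a-2-3p was not tested.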

How the data were processed

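Total RNA of 6 mouse brain samples was made into small RNA libraries with a NEBNext kit and size-selected for short inserts, per the labels' protocols. The authors deposited raw counts of reads for each mature miRNA, and the values, whole numbers with unequal totals, bear no normalization. The submitters' processing notes name cutadapt and Bowtie; no label or header names their versions, the genome build or the miRNA reference. Each table holds 727 rows and 622 names; of 50 names on several rows, 22 held identical counts throughout, and of several rows the highest in total was used.

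The test was edgeR 4.0.16 under R 4.3.3 (quasi-likelihood test, TMM scaling, filterByExpr with minimum count 10 and minimum total 15, group as the only term), with Benjamini-Hochberg adjustment over 440 miRNAs and a threshold of 0.05. Standard errors come from the F statistic. Arm ratios used a pseudocount of 0.5 and exact permutation tests (SciPy 1.17.1). A count of 0 allows up to 3 counts, here 1.45 to 2.05 CPM per library, counting error only.

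Alternatives were scaling by RLE, by upper quartile and by total count, other filters, DESeq2 1.42.0, limma-voom 3.58.1, robust estimation, other treatments of repeated rows, miRNAs left out of the table and each library left out; keeping the lower row of miR-219a-5p was added after seeing the data. Members, lists and the rule for named miRNAs (members, the listed lineage miRNAs, the 5 nearest patterns, the most abundant markers) were chosen with earlier results of these data known. Sequences and coordinates are from RefSeq and GENCODE M21 on GRCm38.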

Additional observations from a re-analysis of the deposited data

How the results depend on the processing

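Over 12 settings other than leaving out a library (13 for miR-219a-5p), the log2 fold change of miR-219a-2-3p ran from 0.86 (limma-voom) to 1.11, that of miR-338-3p from 0.34 to 0.43 and that of miR-338-5p from 0.11 to 0.21, none past the threshold (adjusted p of 0.0862 or more). That of miR-219a-5p ran from −0.27 (its lower row) to 0.0053, the 1 change of sign, with the miR-183 and miR-200 groups left out before scaling; the cause was not tested. With single libraries left out the ranges were 0.51 to 1.36 for miR-219a-2-3p, which passed without GCI library 2 alone, 0.27 to 0.54 for miR-338-3p, −0.026 to 0.28 for miR-338-5p and −0.29 to 0.13 for miR-219a-5p. The difference in log2 arm ratio ran from 0.31 to 1.60 for Mir219a-2, from −0.016 to 0.33 for Mir338 and from −0.73 to 0.083 for Mir219a-1; other pseudocounts and rows changed none of their signs. Of all tested miRNAs, 10 passed with edgeR, 4 after leaving out the 5 most abundant and 4 under RLE scaling, 26 with DESeq2 (22 higher, 4 lower) and 0 with edgeR once the miR-183 and miR-200 groups, which hold the 10, were left out (69 at an unadjusted p under 0.05). With single libraries left out the count ran from 0 to 100, being 1 without GCI library 1, 0 without Sham library 6 and 0 without GCI library 3 (44 and 57 at an unadjusted edgeR p under 0.05, in that order). No paired analysis was possible because the groups share only replicate number 3. Depth limits miR-219a-1-3p, with at most 4 counts in a library.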

Other observations

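The other strands had neighbours of their own. The pattern nearest to that of miR-338-3p was that of miR-30e-3p, the passenger strand of a broadly expressed family, at a root mean square difference of 0.06 log2 units against a median of 0.39 over 401 miRNAs. miR-30e-3p stood at 2380, 1791 and 2589 CPM in GCI libraries 1, 2 and 3, against 1726, 1644 and 1864 CPM in Sham libraries 3, 6 and 7. miR-3535, miR-329-3p, miR-383-5p and miR-22-5p followed at 0.10 to 0.12 log2 units, while the partner strand miR-338-5p came at place 89 (0.27) and miR-219a-2-3p at place 254 (0.48). Nearest to miR-219a-5p was miR-107-3p, at 0.10 log2 units against a median of 0.41, followed by miR-411-5p, miR-151-3p, miR-136-3p and miR-301a-3p at 0.14 to 0.15. miR-107-3p stood at 196, 342 and 253 CPM in GCI libraries 1, 2 and 3, against 267, 231 and 323 CPM in Sham libraries 3, 6 and 7. miR-219a-2-3p came at place 378 of 401 for miR-219a-5p (0.91 log2 units).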
